A study of Saccharomyces cerevisiae BY4741 with 4 samples.

Results

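The core histone genes of budding yeast and the gene for the H2A variant H2A.Z were followed in a comparison of histone H3 lysine 4 trimethylation (H3K4me3) with and without SPP1. The members are HTA1 (YDR225W), HTB1 (YDR224C), HTA2 (YBL003C), HTB2 (YBL002W), HHT1 (YBR010W), HHF1 (YBR009C), HHT2 (YNL031C), HHF2 (YNL030W) and HTZ1 (YOL012C). They were chosen by systematic name and not by a cut on their levels, though with earlier results of these data known. All 9 had a level in both H3K4me3 libraries, among 5038 genes with such levels. Both strains were of the BY4741 background, a haploid laboratory line of mating type a. Wild type carried his3Δ1, leu2Δ0 and ura3Δ0, and in the other strain KanMX6, a drug resistance cassette, replaced SPP1. Both were grown in rich glucose medium to log phase at an optical density of 0.6, with Schizosaccharomyces pombe cells added as a spike-in (25% of the volume). Each strain had 1 H3K4me3 library, so no value below has a replicate error, no test between strains was possible, and the spread that would separate neighbours in an order of levels is not known.

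Budding yeast packs its DNA on histones encoded by a small set of genes. Each of H2A, H2B, H3 and H4 has a pair of gene copies, and the copies are arranged as divergent pairs, H2A beside H2B and H3 beside H4, that are read outwards from a shared promoter. These genes are transcribed mainly in S phase, when new DNA needs nucleosomes. The HIR complex represses all of the pairs other than HTA2-HTB2 outside that phase. HHT1 and HHT2 encode H3, the protein that carries the mark measured here. HTZ1 stands apart from the other histone genes in the genome, is not tied to S phase, and encodes the variant that the SWR1 remodeller places beside promoters. H3K4me3 marks the 5′ end of transcribed genes and is written by COMPASS, in which Spp1 is a PHD finger subunit.

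HTB1 and HTA1 lie on the right arm of chromosome IV, at 914317 to 914712 on the minus strand and 915530 to 915928 on the plus strand. HTA2 (minus strand, 235394 to 235792) and HTB2 (plus strand, 236492 to 236887) lie on chromosome II. HHF1 (minus strand, 255373 to 255684) and HHT1 (plus strand, 256331 to 256741) lie on the same chromosome, with 18485 bases between the end of HTB2 and the near end of HHF1. HHT2 (minus strand, 575640 to 576050) and HHF2 (plus strand, 576727 to 577038) lie on chromosome XIV, and HTZ1 (minus strand, 303579 to 303983) lies on chromosome XV. Coordinates are those of the RefSeq R64 annotation, 1-based, and strands were read from the systematic names. The coding lengths ran from 312 to 411 bases, and none of these genes has an intron. The stretch between the divergent starts was 817 bases for HTA1-HTB1, 699 for HTA2-HTB2, 676 for HHT2-HHF2 and 646 for HHT1-HHF1. All of these are wider than the median of 501 bases over 1118 other divergent neighbours in which both genes were measured.

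The deposited level is a linear, normalised H3K4me3 signal, with 1 value per gene and library. Across 4938 genes of annotated length the Spearman correlation of level with length was 0.12 for wild-type levels and -0.00042 for those of the deletion strain. Levels thus did not grow in proportion to length. Because the mark lies at the 5′ end of genes, even a sum of signal need not do so. The correlations therefore do not show how a level was computed, and levels of different genes are set side by side with that limit. SPP1 served as the check of the strain labels, at 1.89 (wild type) against 0.0982 (deletion strain). Of the other genes that mark the strain, HIS3 was measured, at 1.97 and 0.622, but his3Δ1 removes only part of that gene, so its level checks nothing. LEU2 and URA3 were not analysed here. The wild-type median over all genes was 2.01 and the deletion-strain median 0.494. The median gene lay at 26.3% of its wild-type level, a log2 ratio of -1.93.

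In wild type every one of the 8 core histone genes had less H3K4me3 than the median gene, whereas HTZ1 had more. HTB2, for H2B, had the highest wild-type level of the core genes, 1.59. HTB1, the other H2B gene, had a wild-type level of 1.43 and HHT2, for H3, one of 1.42. HHF1 (H4) followed at 1.28, HTA2 (H2A) at 1.25 and HHF2 (H4) at 1.10. HHT1 (H3) and HTA1 (H2A) were lowest, with wild-type levels of 0.936 and 0.921. HTZ1 stood apart at 2.18, a level 1.37 times that of HTB2. Of all genes, 7.78% had a lower wild-type level than HTA1, 20.9% a lower one than HTB2, and 68.3% a lower one than HTZ1. The cultures were in log phase, so a level averages over cells, and fewer marked cells cannot be told apart from less mark per cell. Short genes had somewhat lower levels in general. Among 174 other genes with lengths between those of the shortest and longest member, the median wild-type level was 1.86 and the middle 50% lay between 1.33 and 2.10. The core histone genes were all below that median too, with between 15.5% and 34.5% of these short genes below them, and HTZ1 was above 81.6% of them.

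**Figure D1:**
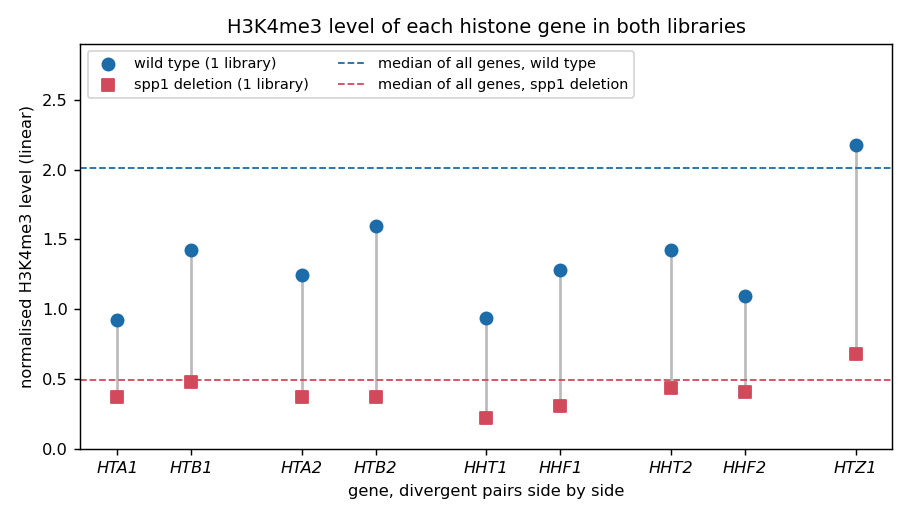
Normalised H3K4me3 level (linear axis) of the 9 genes in wild type (circles) and the spp1 deletion strain (squares), 1 library each, with divergent mates side by side and dashed lines at the median of all genes. All 8 core histone genes lie under the wild-type median of 2.01, and HTZ1 lies above it at 2.18. All 9 genes are lower in the deletion strain as the authors scaled the libraries. After division of each library's levels by their sum over all genes, 6 of 9 are higher.

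In the deletion strain the levels of the core histone genes lay between 0.222 and 0.479, and HTZ1 again stood highest, at 0.682. HTB1 had a level of 0.479 there, HHT2 0.435 and HHF2 0.409. The H2A genes HTA1 and HTA2 both had a level of 0.373, and HTB2 had 0.369. The pair HHF1 and HHT1 closed the order with deletion-strain levels of 0.309 and 0.222. HTZ1 alone exceeded the deletion-strain median of all genes. HHT1, at the bottom, had a level above that of 9.25% of all genes, and HTB1 one above that of 47.6%.

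All 9 genes lay below 50% of their wild-type level, as did 93.8% of all genes. HTA1 kept the largest share of its wild-type level, 40.5%, a log2 ratio of -1.30. HHF2 kept 37.3%, HTB1 33.6%, HTZ1 31.3%, HHT2 30.6% and HTA2 29.9%. There was then a step to HHF1 with 24.2%, HHT1 with 23.7% and HTB2 with 23.2%, a log2 ratio of -2.11. These last 3 genes lie on chromosome II, as does HTA2 with 29.9%. They were the members below 25% of wild type, against 44.6% of all genes and 35.1% of the short genes. The other 6 members lay above the median ratio of all genes, where 50% of all genes and 56.9% of the short genes lie. The median member lay at 30.6% of wild type, a log2 ratio of -1.71, which was 0.22 above that of all genes and 0.10 above that of the short genes. The share of wild type depends on how the authors scaled the libraries. As an alternative, each library's levels were divided by their sum over the 5038 genes, which is not a read total. Of the 9 genes, 6 then had a larger part of the deletion-strain sum than of the wild-type sum, against 38.4% of all genes.

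When both levels were read together, the core histone genes differed in how far they lay above genes of like wild-type level, and HHT1 did not. Since few genes are marked as weakly as they are in wild type, each was set beside the genes whose wild-type level was within 10% of its own, a description added with the values known. HTA1 had 1.67 times the median deletion-strain level of 103 such genes, and 95.1% of them had a lower level than it. The same share was 94.4% for HTB1 (340 genes), 93.7% for HHF2 (175 genes), 90.8% for HHT2 (336 genes) and 86.2% for HTA2 (203 genes). HHF1 lay above 74.5% of its 216 and HTB2 above 62.1% of its 610. HHT1 lay in the middle, with 49.0% of 104 genes below it. HTZ1, which has a common wild-type level, lay above 62.3% of 2207. No replicate shows how far such places would move between libraries.

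**Figure D2:**
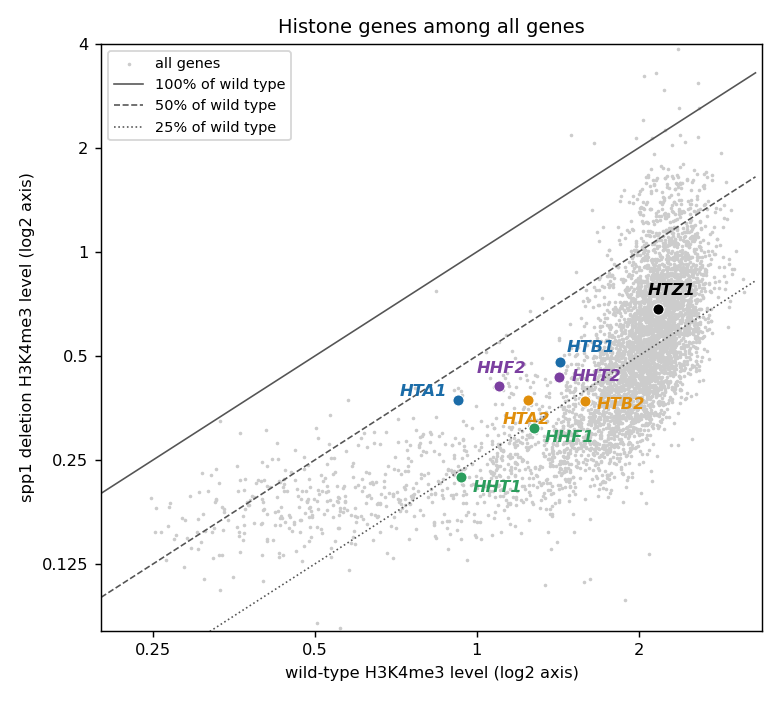
Deletion-strain level against wild-type level for all genes (grey, both axes log2) and the 9 histone genes, coloured by divergent pair, with lines at 100%, 50% and 25% of wild type and 5 genes outside the axes. HTA1, HHF2, HTB1 and HHT2 lie near the upper edge of the genes with like wild-type levels, HHT1 lies amid them, and HTZ1 lies within the main cloud.

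As pairs, with the levels of the mates summed, HTA1-HTB1 kept most H3K4me3 (36.3% of wild type) and HHT2-HHF2 came next (33.5%). The pairs of chromosome II kept less, HTA2-HTB2 26.1% and HHT1-HHF1 24.0%. Each kind of pair, H2A with H2B and H3 with H4, was thus represented above and below, and the order followed neither the histone encoded nor the copy number in the name. The mates of each pair had unequal wild-type levels. HTB1 had 1.55 times the level of HTA1, HHF1 had 1.37 times that of HHT1, HHT2 had 1.29 times that of HHF2, and HTB2 had 1.28 times that of HTA2. The H2B gene was the higher mate in both H2A-H2B pairs, whereas H4 was higher in HHT1-HHF1 and H3 in HHT2-HHF2. These wild-type differences of 0.35 to 0.63 on the log2 scale exceeded the median of 0.23 over the 1118 other divergent pairs.

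In the deletion strain the mates of 3 of the pairs differed less than in wild type. HTA2 and HTB2 differed by 1.01 times, HHT2 and HHF2 by 1.06 times and HTA1 and HTB1 by 1.28 times. HHF1 was above HHT1 by 1.39 times. The histone pairs' differences in deletion-strain level, 0.01 to 0.48 on the log2 scale, were all under the median of 0.60 of other divergent pairs. Among those others, 24.3% had mates closer to each other in the deletion strain than in wild type. In the same 3 histone pairs the mate with the higher wild-type level kept the smaller share of it, as in 43.3% of the other pairs. Wild-type level is the denominator of that share, so the wild-type difference enters it directly. HTB1 kept 33.6% against 40.5% for HTA1, a difference of 0.27 in log2 ratio, HTB2 kept 23.2% against 29.9% for HTA2 (0.37), and HHF2 kept 37.3% against 30.6% for HHT2 (HHT2 minus HHF2, -0.29). HHT1 and HHF1 lay at nearly equal shares, 0.03 apart. All of these are below the median difference in log2 ratio of other divergent pairs, 0.45, although with a pseudocount of 0.201 on the levels HTA2-HTB2 (0.32) lies just above that median (0.31). Across those pairs the ratios of mates were only weakly related (Spearman correlation 0.12, over pairs from the same 2 libraries).

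**Figure D3:**
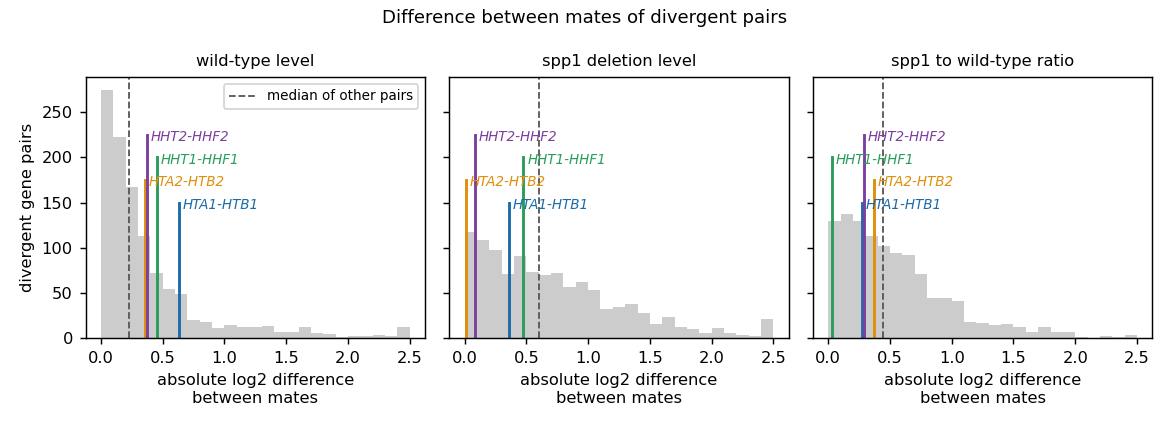
Absolute log2 difference between the mates of divergent gene pairs in wild-type level, deletion-strain level and the ratio of the libraries, for 1118 other pairs (grey histograms, values above 2.5 counted in the last bar, dashed line at the median) and the 4 histone pairs (coloured lines, whose heights carry no meaning). Every histone pair lies right of the median in wild type (0.23) and left of it in the deletion strain (0.60) and in the ratio (0.45, without a pseudocount).

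The gene copies of a histone differed as well. For H2A, HTA2 had 1.35 times the wild-type level of HTA1, while their deletion-strain levels were equal to within 1.0005 times, so that HTA1 kept the larger share (40.5% against 29.9%). For H2B, HTB2 had 1.12 times the wild-type level of HTB1 and the lower level in the deletion strain, 0.369 against 0.479. The H3 copies differed most in level. HHT2 had 1.52 times the wild-type level of HHT1 and 1.96 times its deletion-strain level. For H4, HHF1 was the higher copy in wild type (1.28 against 1.10) and the lower in the deletion strain (0.309 against 0.409). That left it 24.2% against 37.3% for HHF2, a log2 difference of -0.62. This was the widest between copies, though not with the 1st percentile of each library subtracted. With both copies summed the histones were more alike, with H2A at 34.4% of wild type, H4 at 30.2%, H2B at 28.1% and H3 at 27.9%. Copies of a histone gene are closely similar in coding sequence. The sources used here do not say how reads that match both copies were assigned, so levels of copies may share reads, and their part in these differences was not tested. No 2 members had the same pair of levels.

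HTZ1 was set against the core genes as the variant that is not part of a histone gene pair. It does have a divergent neighbour, PLB3, 1365 bases away, and that pair is counted among the 1118 other divergent pairs. The wild-type level of HTZ1 was 1.72 times the median of the 8 core genes, and its deletion-strain level 1.83 times. Its share of wild type, 31.3%, lay amid theirs, above 5 of the 8, and 0.05 above their median on the log2 scale. That small difference was -0.09 with the same pseudocount, so its direction depends on that choice. Against the genes of the major H2A, HTZ1 lay 0.15 below the mean of HTA1 and HTA2 in log2 ratio. The genes with levels most like those of HTZ1, by distance over both log2 levels, were YGR017W (2.18 in wild type, 0.680 in the mutant), RET3 (2.18 and 0.684), a coatomer subunit gene, and ATX2 (2.17 and 0.686). As many as 186 genes lay within a distance of 0.1 of HTZ1 and 12 within 0.1 of the core histone median. The nearest to that median were MSA1 (1.25 and 0.368), a regulator of G1 transcription, VPS36 (1.23 and 0.372), a subunit of the ESCRT-II sorting complex, and MIT1 (1.26 and 0.361), a regulator of filamentous growth. Likeness over 2 libraries says little of any single gene.

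The genes around the histone loci did not follow the order of the pairs. Around HTA1-HTB1 the 10 nearest measured genes, 5 on each side, had a median of 23.8% of wild type, below both members. The nearest were CRF1, a corepressor of ribosomal protein genes, on the HTB1 side (0.675 in wild type, 0.195 in the mutant, 29.0%), and the adenylate kinase gene ADK1 on the HTA1 side (2.13 and 0.743, 34.8%). Around HHT2-HHF2 the median was 21.2%, again below both members. There SIW14, a phosphatase gene, lay at 32.6% (2.22 and 0.724), and KTR5, a mannosyltransferase gene 166 bases from the end of HHF2, at 18.4% (1.29 and 0.237). Around HTA2-HTB2 the median was 24.4%, between its mates. UTP20, which acts in ribosome biogenesis, lay at 22.8% (2.34 and 0.532) and ECM15 at 20.6% (1.88 and 0.388). Around HHT1-HHF1, the pair with the least kept, the median was the highest of the pairs, 29.7%. FLR1, a multidrug transporter gene, lay at 28.3% there (1.66 and 0.470), and the pyrophosphatase gene IPP1 at 36.0% (2.24 and 0.805).

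Most of the flanking genes had more H3K4me3 in wild type than the histone genes between them, as did most genes of the whole set. The count above the higher mate was 8 of 10 at HTA1-HTB1, 8 of 10 at HTA2-HTB2, 9 of 10 at HHT1-HHF1 and 9 of 10 at HHT2-HHF2. Of all genes, only 15.8% had a lower wild-type level than HTB1, 20.9% than HTB2, 13.3% than HHF1 and 15.6% than HHT2. These counts thus follow the places of the members among all genes and do not set the flanking genes apart. GPI18, which lies between the chromosome II pairs, is among the 10 flanking genes of both. Its wild-type level, 1.35, is above the higher mate only at HHT1-HHF1. At HTZ1, which lies above 68.3% of all genes in wild type, the count was 2 of 10. The 2 were HRD1 (a ubiquitin ligase gene, 2.29 in wild type, 0.522 in the mutant) and RCL1. PLB3, a phospholipase gene on the side of RCL1 and the nearest to HTZ1 there, had levels of 1.51 and 0.447. The right arm of chromosome IV, which holds HTA1-HTB1, had a standard deviation of log2 ratios of 0.50 over 480 genes. The 29 arms other than IV left, this arm included, ranged from 0.43 to 0.57. The left arm of chromosome IV, where ratios scatter widely (1.06), holds no member.

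**Figure D4:**
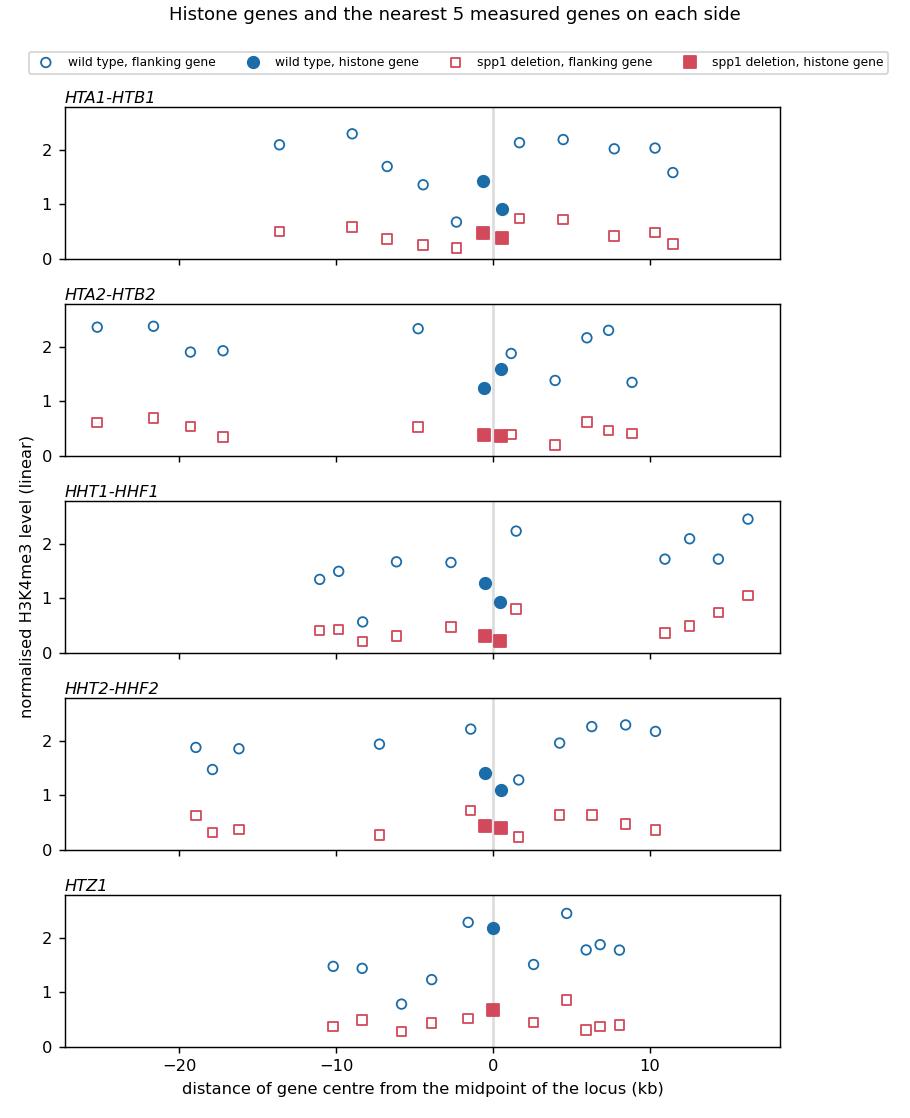
Level (linear axis) of the histone genes (filled) and of the 5 nearest measured genes on each side (open) in wild type (circles) and the deletion strain (squares), against distance of the gene centre from the midpoint of the locus in kb. At each of the 4 pairs at least 8 of the 10 flanking genes have a wild-type level above the higher mate, and at HTZ1 2 of 10 do. Of all genes, at most 20.9% lie below the higher mate of a pair, and 68.3% lie below HTZ1.

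Genes that act with the histones were read beside them. The linker histone gene HHO1 was measured at 2.14 (wild type) and 0.496 (deletion strain), or 23.2%. CSE4, for the centromeric H3 variant, was not analysed here. Of 13 regulators of histone gene transcription 12 were measured, with a median of 26.4% of wild type, near that of all genes (26.3%). Of these 12, 5 lay below 25%, against 44.6% of all genes. The regulators ranged from RTT109, an H3 acetyltransferase gene, at 16.4% (1.92 and 0.315) to HIR2, for a HIR complex subunit, at 42.2% (1.99 and 0.840). SWI6, for a subunit of the factors that drive G1/S transcription, topped the list in wild type, with 2.60, and lay at 27.9%. The 16 genes of H2A.Z deposition had a median of 33.5%, and 13 lay above the median ratio of all genes, where 50% of all genes lie. Among them the helicase gene RVB1 lay at 58.6% (2.35 and 1.38), the importin gene KAP114 at 16.5% (2.05 and 0.338), and VPS71, a SWR1 complex subunit gene that topped the list in wild type (2.53), at 34.8%.

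The 11 genes of other histone chaperones had a median of 36.7% of wild type, and 8 lay above the median ratio of all genes, against 50% of all genes. NHP6A, for a partner of the FACT chaperone, lay at 43.6% (1.87 and 0.817), and MSI1, for a subunit of the assembly factor CAF-1, at 20.0% (2.56 and 0.512). MSI1 also topped the list in wild type. Genes with a peak of transcription at the G1/S boundary, just before that of the histone genes, had a smaller median share. Of 10 such genes 8 lay below 25% of wild type, against 44.6% of all genes. Their median was 21.0%, against 30.6% for the histone genes. CLN1, a G1 cyclin gene, lay at 16.2% (1.66 and 0.268), RAD27, a flap nuclease gene that topped the list in wild type (1.87), at 22.0%, and POL30, for the replication clamp, at 38.3% (1.68 and 0.643). Wild-type levels of this list, with a median of 1.65, were also under that of all genes. Among 610 genes with wild-type levels within 10% of that of HTB2 (1.59), the median was 20.9%, near that of this list. These counts describe the libraries, and no difference between lists was tested.

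**Figure D5:**
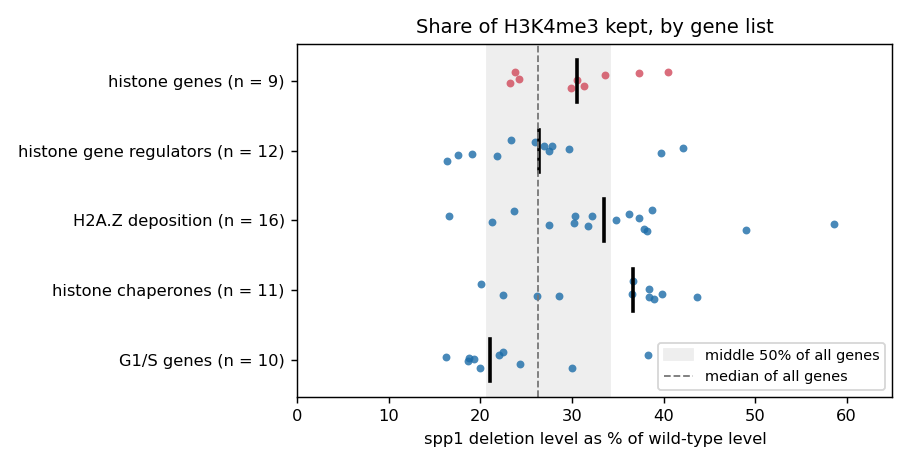
Level in the deletion strain as a percentage of wild type for the 9 histone genes and 4 lists of related genes (points, 1 per gene, with vertical jitter only), with the list median as a black bar and the median and middle 50% of all genes in grey. The histone genes span 23.2% to 40.5%, and most of the G1/S genes lie to their left.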

How the data were processed

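H3K4me3 was measured by chromatin immunoprecipitation and sequencing of micrococcal nuclease digests, per the labels' protocols. The authors deposited 1 normalised H3K4me3 signal per gene and strain, per the file headers, and the series text ties comparability to the spike-in. Bowtie2, SAMtools, bedtools, sacCer3 and ASM294v2 are named, per the submitters' processing notes. The sources used here do not give the read depth, the step from reads to levels, or whether the input was divided out, so no counting interval is given. The series has 4 libraries, 1 per label, and the values of the wild-type input and of the spp1 library titled without an assay were not analysed here.

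Of 5219 genes listed, 5116 matched the RefSeq R64 annotation by systematic name. Log2 ratios of deletion strain to wild type were computed without a pseudocount or filter, in Python 3.11.15 with pandas 2.3.3. Thresholds were 50% and 25% of wild type. Divergent neighbours are adjacent annotated protein-coding genes that start away from each other without overlap. Pair differences and medians were also computed on data simulated from known ratios without measurement noise, which checks only the arithmetic. Members and lists were chosen with earlier results of these data known. Named genes are the members, the nearest measured flanking genes, strain checks, of each list the highest wild-type level and the extreme ratios, and the 3 genes nearest to HTZ1 and to the core median. RCL1 and GPI18 were named after their values were seen.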

Additional observations from a re-analysis of the deposited data

How the results depend on the processing

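Scaling and low-level signal set most of the limits. Values were taken as moved beyond a change of 0.1 on the log2 scale, or 1.5 times for a count, since no replicate gives a spread. After division of each library's levels by their sum over the 5038 genes, the members' median log2 ratio was 0.051 and none of them (0) lay below 50% of wild type. The log2 ratio became 0.46 for HTA1, 0.19 for HTB1, 0.019 for HTA2, 0.051 for HHT2, 0.34 for HHF2 and 0.086 for HTZ1. Differences between genes do not depend on that scaling. With a pseudocount of 0.201 the members' median was -1.35, 8 of the 9 lay below 50% of wild type (HTA1 had a log2 ratio of -0.97), the difference HHT1 minus HHF1 turned to 0.11 and HTZ1 minus the core median to -0.086, and the copy differences were 0.39 for HTB1 minus HTB2, -0.074 for HHT1 minus HHT2 and -0.45 for HHF1 minus HHF2. With the 1st percentile of each library subtracted the members' median was -1.89 and HTZ1 lay 0.17 above the core median. The differences between mates were then 0.37 for HTA1 minus HTB1, 0.50 for HTA2 minus HTB2, -0.45 for HHT1 minus HHF1 and -0.39 for HHT2 minus HHF2. Those between copies were 0.66 for H2A, 0.79 for H2B, -1.07 for H3 and -1.02 for H4, so H3 in place of H4 was the widest. The members' median lay 0.074 above that of genes in the upper part of wild-type levels, from the all-gene median up, 0.10 above genes of like length and 0.38 above genes within the members' range of wild-type level. Beyond the construction of each alternative, the cause was not tested. No paired analysis was possible because each strain has 1 library, and for the same reason no replicate could be left out. Read depth is unknown, and low levels such as that of HHT1 are the most exposed to background.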
